A study of Mus musculus with 4 samples.

Results

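The genes described here encode 9 peptidases that act at the cell surface and trim or inactivate peptides outside the cell: Mme (neprilysin), Ece1, Ace, Anpep, Enpep, Lnpep, Naalad2, Folh1 and Dpp4. Their RNA levels were compared between 2 mouse cell lines. The first, NSCL61, consists of p53-/- neural stem cells from the brain of C57BL/6 mouse embryos at day 14.5 and is said by the labels to be like glioma-initiating cells. The other, NSCL61-sox11, is labelled p53-/- as well and expresses sox11. Both were grown, per the labels, as floating spheres in serum-free medium with growth factors that include bFGF and PDGF. There were 2 Affymetrix arrays of NSCL61 and 2 of NSCL61-sox11, and per the series' design text the second line no longer formed tumours after transplantation. All probe sets that the platform annotation assigns to one of these genes alone were taken: 16 of the 45101 on the array, for 8 of the 9 genes. Lnpep has no probe set of its own in that annotation and was not analysed here. The genes were chosen by their measured difference between the lines, Mme and Naalad2 being among the largest, so their values are a description and carry no test. Whether the arrays of a line stand for separate cultures is not stated, and NSCL61-sox11 is a single derived line whose means of expressing sox11 the labels do not give.

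Most of these enzymes are zinc peptidases anchored in the plasma membrane with the active site outside the cell. Neprilysin and Ece1 belong to one family: neprilysin degrades enkephalins, tachykinins, natriuretic peptides and amyloid beta, and Ece1 cuts big endothelin to the active peptide. Ace removes dipeptides from angiotensin I and bradykinin, Anpep and Enpep remove single residues from the amino end, and Folh1 and its relative Naalad2 release glutamate from N-acetylaspartylglutamate (NAAG), an abundant brain peptide. Dpp4 is a serine peptidase that removes dipeptides from chemokines such as Cxcl12 and from incretins.

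Values are the deposited ones, read as log2 units, and a level can be compared between arrays for 1 probe set but not between probe sets. Probe sets whose mean over the 4 arrays reached 5.15, the brightest 60%, were tested with limma. Of the 16 peptidase probe sets 8 lay above this level, from 5 genes (Mme, Ece1, Ace, Anpep and Naalad2), and 8 lay below it. Sox11 itself rose 7.45-fold in NSCL61-sox11, from 4.95 ± 0.19 to 7.85 ± 0.16 (SD, n = 2 each, limma adjusted p = 0.00013). The line is labelled as expressing sox11, so this value only checks the labels. With the NSCL61 level below 5.15, the probe set passed the level filter only through NSCL61-sox11, and the size of the rise is uncertain. Of 6 tested neural stem cell markers 3 fell (Sox2, Vim and Pax6) and 0 rose, and Fabp7, Olig2 and Prom1 lay below the level filter. Among all 13084 genes tested, 9.19% fell and 10.0% rose. Sox2, a stem cell transcription factor gene, fell 3.24-fold, from 10.52 ± 0.32 to 8.83 ± 0.21 (SD, n = 2 each; limma adjusted p = 0.0019), and Pax6 fell by 0.45 on the log2 scale (limma adjusted p = 0.040). The intermediate filament gene Nes lay at 9.39 ± 0.13 in NSCL61 and 9.44 ± 0.10 in NSCL61-sox11, and Vim at 14.38 ± 0.03 in NSCL61 and 14.17 ± 0.05 in NSCL61-sox11 (SD, n = 2 each). An exact permutation test, two-sided, cannot go below p = 0.333 with 2 arrays a line. The limma p-values rest on array-to-array spread alone, and that spread may be technical.

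**Figure D1:**
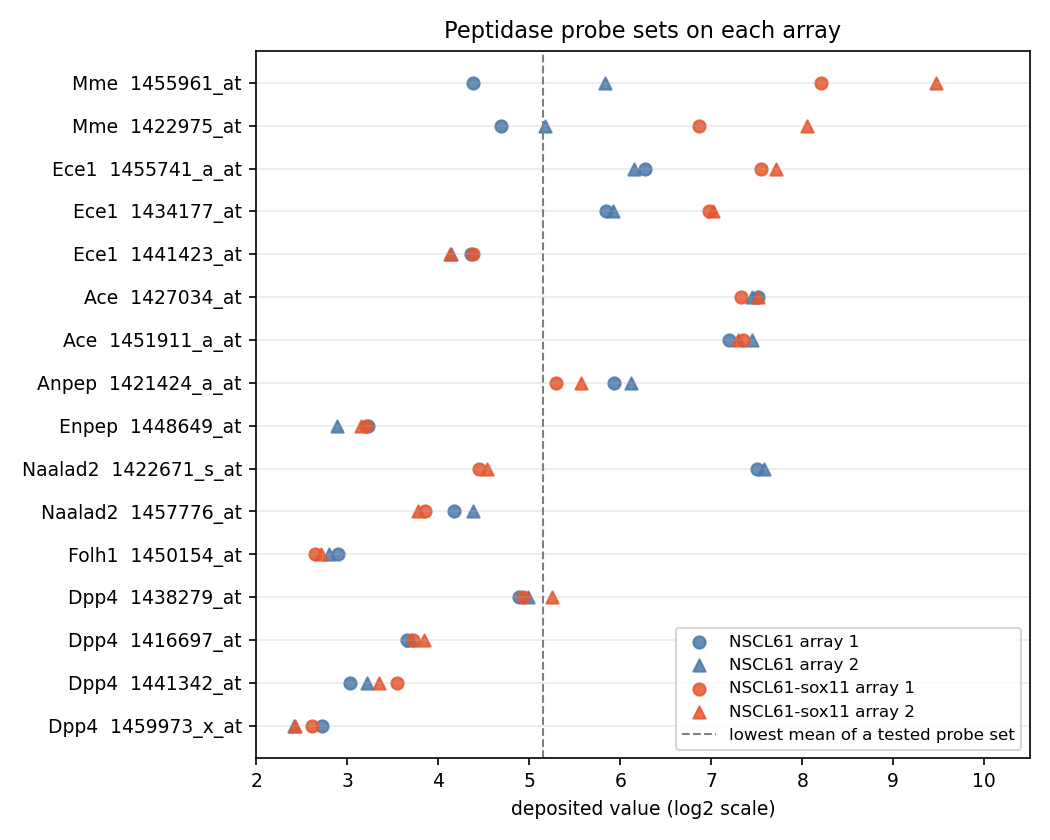
Deposited value (log2 scale, horizontal axis) of each of the 16 peptidase probe sets on the 4 arrays, with NSCL61 in blue and NSCL61-sox11 in orange, circles for array 1 and triangles for array 2; the dashed line marks 5.15. On the upper Mme row the NSCL61 arrays lie at 4.38 and 5.83 and the NSCL61-sox11 arrays at 8.20 and 9.47, while on the upper Naalad2 row the order of the lines is the opposite.

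The sequences before the transcription starts of Mme, Ece1 and Naalad2 are shown because these genes had the largest differences and Sox11 is a DNA-binding HMG-box factor. RefSeq promoter windows of GRCm38.p6 were matched by symbol for 9 of the 9 genes, 16 windows in all. In the 250 bases before each start, on both strands and with overlaps allowed, the SOX consensus NNCAANG was searched with A or T at each N, which makes 8 words. Of all 32851 windows in the table, 21.8% held at least 1 of these words and 3.14% at least 2 matches; 4 of the 16 windows of these genes held one. The sequences below belong to the most upstream start of each gene, 5′ to 3′ on the gene's strand, with matches in capitals: Mme at chr3:63294961-63295210 (plus strand), Ece1 at chr4:137861987-137862236 (plus strand) and Naalad2 at chr9:18397539-18397788 (minus strand).
Mme: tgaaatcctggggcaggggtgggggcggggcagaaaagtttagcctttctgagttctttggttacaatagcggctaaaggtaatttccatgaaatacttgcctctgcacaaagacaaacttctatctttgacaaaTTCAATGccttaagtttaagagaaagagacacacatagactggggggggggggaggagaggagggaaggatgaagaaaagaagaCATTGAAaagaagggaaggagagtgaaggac
Ece1: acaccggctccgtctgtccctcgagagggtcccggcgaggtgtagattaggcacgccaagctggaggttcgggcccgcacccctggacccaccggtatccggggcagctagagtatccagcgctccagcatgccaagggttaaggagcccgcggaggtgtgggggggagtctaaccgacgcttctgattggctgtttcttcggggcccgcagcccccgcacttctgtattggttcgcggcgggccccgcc
Naalad2: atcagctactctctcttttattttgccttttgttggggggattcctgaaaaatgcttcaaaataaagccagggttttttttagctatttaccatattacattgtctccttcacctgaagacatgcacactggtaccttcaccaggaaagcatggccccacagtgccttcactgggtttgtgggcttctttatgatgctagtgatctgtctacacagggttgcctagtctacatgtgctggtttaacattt

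The Mme window held 2 matches, TTCAATG beginning 115 bases before the start and its reverse complement CATTGAA beginning 31 bases before it. The other 2 Mme windows and both Naalad2 windows held none, the Ece1 windows held 1 match at 2 of 4 starts, not the most upstream, and the Dpp4 window held 1. A match is a run of letters and not a measured site. The windows also differed in composition. The most upstream Mme and Naalad2 windows had 45.6% and 42.4% G and C with 2 and 0 CpG. The most upstream Ece1 window had 66.8% and 22 CpG. The median of all windows was 52.4% and 6. For Mme and Ece1 the composition depended on the start. The other 2 Mme windows had 73.2% and 73.6% with 27 CpG each. The other Ece1 windows ran from 53.2% to 69.2% with 5 to 23 CpG. The other Naalad2 window had 3 CpG.

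Mme and Ece1, the 2 members of the neprilysin family in the set, were higher in NSCL61-sox11. On the brighter Mme probe set, 1455961_at, the level was 4.38 and 5.83 on the NSCL61 arrays and 8.20 and 9.47 on the NSCL61-sox11 arrays. The lines did not overlap, but the arrays of each line stood more than 1 unit apart. The log2 difference was 3.73 (SE 0.52), or 13.3-fold, and it was 3.0 or 4.46 when NSCL61 array 1 or 2 was left out and 4.37 or 3.10 when NSCL61-sox11 array 1 or 2 was. The other Mme probe set, 1422975_at, lay at 4.68 and 5.17 in NSCL61 and at 6.86 and 8.05 in NSCL61-sox11, a log2 difference of 2.53 (SE 0.35), or 5.77-fold. Both probe sets placed the lines in the same order, with the larger difference on the brighter one. Since NSCL61 array 1 was below 5.15 on both, the size of the Mme difference is uncertain.

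Ece1, the endothelin-converting enzyme, had a smaller difference with closely spaced arrays. Probe set 1455741_a_at lay at 6.27 and 6.15 in NSCL61 and at 7.54 and 7.71 in NSCL61-sox11, a log2 difference of 1.42 (SE 0.11), or 2.67-fold. Probe set 1434177_at lay at 5.84 and 5.92 in NSCL61 and at 6.97 and 7.02 in NSCL61-sox11, a log2 difference of 1.12 (SE 0.11), or 2.17-fold. On both, the NSCL61-sox11 arrays stood above the NSCL61 arrays by several times the spread within a line. The third Ece1 probe set, 1441423_at, was below the level filter, at 4.36 and 4.14 in NSCL61 and 4.38 and 4.12 in NSCL61-sox11, and its lines overlapped.

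Naalad2, a glutamate carboxypeptidase, was lower in NSCL61-sox11. Probe set 1422671_s_at lay at 7.502 and 7.582 in NSCL61 and at 4.44 and 4.53 in NSCL61-sox11. The lines were far apart and the arrays of each line nearly equal: the log2 difference was -3.06 (SE 0.11), 8.31-fold, and leaving out any 1 array gave -3.10 to -3.01. The NSCL61-sox11 level lay below 5.15, so the size of this difference too is uncertain. By Affymetrix naming, the ending _s_at marks a probe set whose probes can match several transcripts. The other Naalad2 probe set, 1457776_at, was below the filter, at 4.17 and 4.38 in NSCL61 and at 3.85 and 3.77 in NSCL61-sox11; it did not overlap either and had the same direction, with a log2 difference of -0.47 (SE 0.12). Folh1, whose product cleaves the same substrate, lay at 2.90 and 2.80 in NSCL61 and at 2.65 and 2.71 in NSCL61-sox11 on its single probe set, below the filter on all 4 arrays, with a log2 difference of -0.17 (SE 0.10). In bulk RNA, fewer cells expressing a gene and less RNA per cell cannot be told apart.

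Anpep was lower in NSCL61-sox11 and Enpep was dim, the 2 aminopeptidase genes of the set with a probe set. Anpep (CD13) lay at 5.93 and 6.12 in NSCL61 and at 5.30 and 5.57 in NSCL61-sox11 on its only probe set, 1421424_a_at. The lines did not overlap, and the log2 difference was -0.59 (SE 0.14), or 1.51-fold lower in NSCL61-sox11; without NSCL61-sox11 array 1 it was -0.45. Enpep, which trims angiotensin II, was below the filter on all arrays, at 3.23 and 2.89 in NSCL61 and at 3.21 and 3.15 in NSCL61-sox11, with overlapping lines.

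Ace, the angiotensin-converting enzyme, was above the filter on 2 probe sets and overlapped between the lines on both. Probe set 1427034_at lay at 7.52 and 7.45 in NSCL61 and at 7.32 and 7.51 in NSCL61-sox11, a log2 difference of -0.06 (SE 0.11). Probe set 1451911_a_at lay at 7.196 and 7.451 in NSCL61 and at 7.35 and 7.29 in NSCL61-sox11, a log2 difference of -0.01 (SE 0.12). Both differences were smaller than their errors. For Dpp4, all 4 probe sets had means below the filter. The brightest, 1438279_at, lay at 4.88 and 4.99 in NSCL61 and at 4.93 and 5.25 in NSCL61-sox11, with overlapping lines, and the differences of the 4 probe sets ran from -0.05 to 0.32. The dimmest of these, 1459973_x_at, was the negative one.

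**Figure D2:**
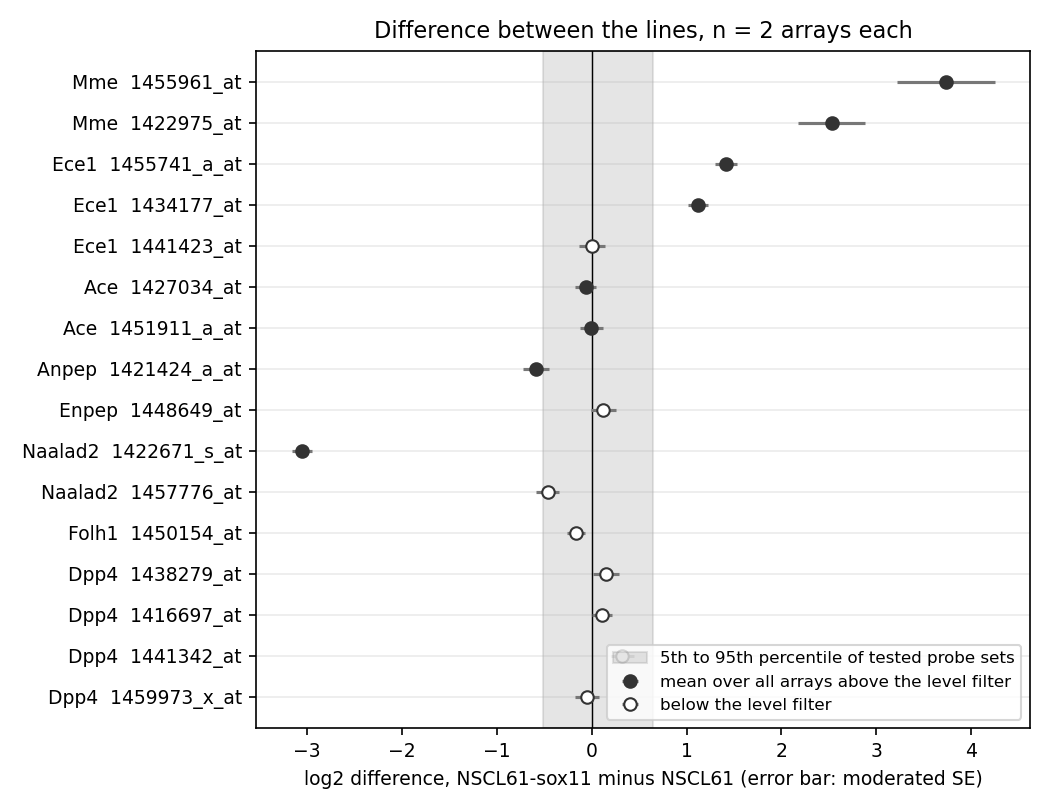
Log2 difference between the lines (NSCL61-sox11 minus NSCL61, horizontal axis) of the 16 peptidase probe sets, with the moderated SE of limma over all probe sets as error bar; filled points are above the level filter and open points below it, and the grey band spans the 5th to 95th percentile of the tested probe sets, -0.51 to 0.64. Both Mme and the 2 brighter Ece1 probe sets lie right of the band, and Anpep and the brighter Naalad2 probe set left of it.

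Of the 8 peptidase probe sets above the filter, 6 passed an adjusted p under 0.05 in limma, 4 higher and 2 lower in NSCL61-sox11. Over all 27022 probe sets tested, 17.3% passed, 8.99% higher and 8.32% lower. The members were chosen with this contrast known, so these calls are no test of them and nothing is read from their share. Of the 6, 3 (both Mme probe sets and the Naalad2 one) had a mean below 5.15 in 1 line and passed the level filter only through the line where they were high. The lines did not overlap on 10 of all 16 peptidase probe sets, against 52.1% of all probe sets outside the controls. The median log2 difference of the 8 was 0.56, against -0.02 over all tested. Mme and Ece1 each count with 2 probe sets among the 8, which come from 5 genes. No shift of the set is read from this median. Scaling the arrays to the poly-A spike-in controls lowered every log2 difference by 0.36, and scaling to the hybridisation controls lowered it by 0.22. The control means also differed between arrays of a line. For poly-A they were 6.89 and 6.63 in NSCL61 and 7.25 and 6.98 in NSCL61-sox11. For hybridisation they were 9.98 and 9.99 in NSCL61 and 10.10 and 10.31 in NSCL61-sox11. With either scaling Mme and Ece1 stayed higher and Naalad2 and Anpep lower in NSCL61-sox11, while Dpp4 and Enpep, each by its brightest probe set, changed sign with both. Dpp4 went from 0.15 to -0.20 with poly-A and -0.064 with hybridisation control scaling, and Enpep from 0.12 to -0.23 and -0.095. Over all probe sets tested, 2429 rose and 2249 fell; the split was 708 and 3038 with poly-A scaling and 1242 and 4656 with hybridisation control scaling.

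The gap between the 2 arrays of a line set Mme apart from the other peptidases. On probe set 1455961_at array 2 was above array 1 by 1.46 in NSCL61 and by 1.27 in NSCL61-sox11. Of the 27022 tested probe sets, 10 had a larger gap in NSCL61 and 31 in NSCL61-sox11, and the median gap was 0.10 and 0.12. The second Mme probe set had gaps in the same direction, 0.49 and 1.20. The gap of the tested Ece1, Ace, Anpep and Naalad2 probe sets was at most 0.26 in NSCL61 and 0.28 in NSCL61-sox11. Array 2 exceeded array 1 by at least 1 in both lines on 27 tested probe sets, and the reverse held on 3. Beside Mme, these 27 included the immediate early genes Fos, Fosb and Egr2, the collagenase gene Mmp13, the cholesterol transporter gene Abca1, the selenium carrier gene Selenop and Pik3ip1, an inhibitor of phosphoinositide 3-kinase; these were named after their values were seen. What differed between the first and second arrays is not stated in the labels.

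**Figure D3:**
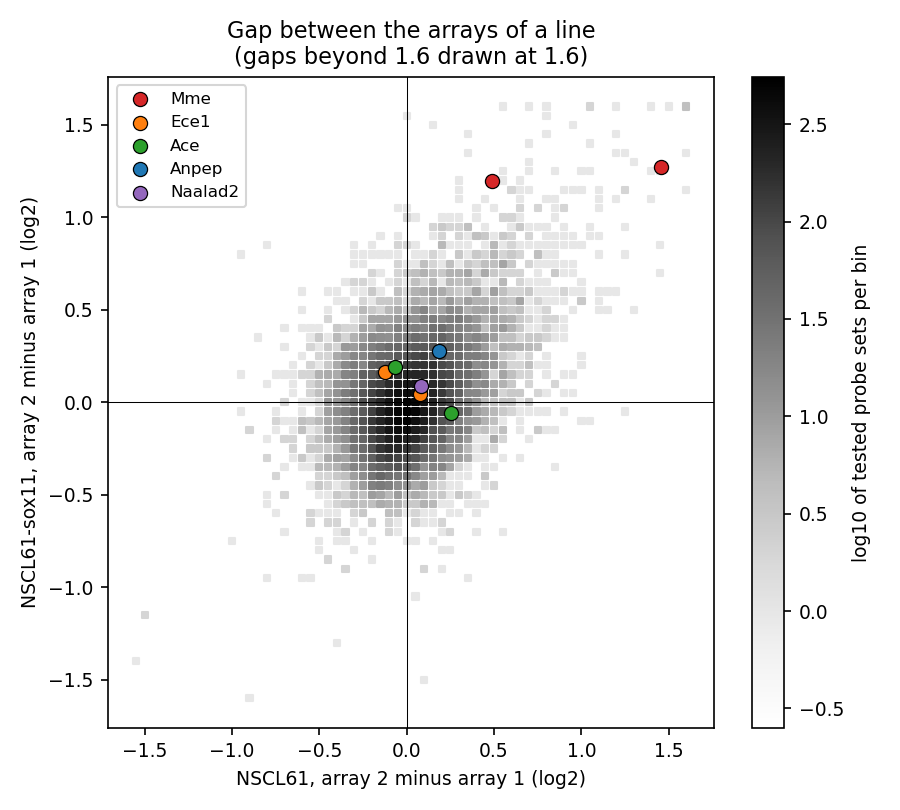
Array 2 minus array 1 (log2) in NSCL61 (horizontal axis) and in NSCL61-sox11 (vertical axis) for the 27022 tested probe sets, binned in grey, with the 8 tested peptidase probe sets in colour. The 2 Mme probe sets lie at the upper right, at gaps of 1.46 and 1.27 and of 0.49 and 1.20, and the others lie near the centre.

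Relatives of these enzymes changed in both directions. Of 77 related peptidase genes in 8 lists, 71 had a probe set and 48 could be tested. Upward calls numbered 4 and downward calls 5, 39 genes did not pass, and the median log2 difference was -0.01. Of all 13084 genes tested, each by its brightest probe set, 19.2% passed (10.0% up, 9.19% down), with a median of -0.02. The related peptidases passing numbered 4 when NSCL61 array 1 was left out and 3 when NSCL61 array 2 was. The 4 and 5 became 2 rises and 7 falls with poly-A scaling, 2 and 9 with hybridisation control scaling and 3 and 7 with equal array medians.

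Among the neprilysin family relatives, 1 of 3 tested genes fell and none rose (median -0.43): Phex, a phosphate-regulating endopeptidase, fell 1.73-fold from 7.66 ± 0.34 to 6.87 ± 0.15 (SD, n = 2 each; limma adjusted p = 0.027). This call ended when NSCL61 array 2 or NSCL61-sox11 array 1 was left out. Ece2, the closest relative of Ece1, lay at 9.11 ± 0.12 and 8.67 ± 0.20 (SD, n = 2 each) and did not pass (limma adjusted p = 0.061), and Mmel1 and Kel lay below the filter. Of the family of Naalad2, 1 of 7 tested genes rose and 2 fell (median -0.09). Qpct, which forms amino-terminal pyroglutamate on peptides, fell 4.14-fold from 7.77 ± 0.50 to 5.72 ± 0.59 (SD, n = 2 each; limma adjusted p = 0.0088). Cpq, a secreted carboxypeptidase, rose 2.13-fold from 5.68 ± 0.27 to 6.77 ± 0.02 (SD, n = 2 each; limma adjusted p = 0.0049). Ermp1, a peptidase of the endoplasmic reticulum, fell by 0.75 on the log2 scale (limma adjusted p = 0.039). This call ended without the intensity trend, and when NSCL61 array 1, NSCL61 array 2 or NSCL61-sox11 array 1 was left out. The other tested Ermp1 probe set differed by -0.73 and did not pass (limma adjusted p = 0.062).

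In the aminopeptidase family 1 of 6 tested genes rose and none fell (median 0.00). This was Erap1, which trims antigenic peptides, at 1.41-fold (limma adjusted p = 0.021), and it lost its call with either control scaling and when NSCL61 array 1, NSCL61 array 2 or NSCL61-sox11 array 2 was left out. None of 8 prolyl peptidase relatives of Dpp4 passed (median 0.05); Prep lay at 10.40 ± 0.07 and 10.36 ± 0.15 and Apeh at 9.25 ± 0.04 and 9.38 ± 0.09 (SD, n = 2 each). Of 8 tested genes in a mixed list of dipeptidases, surface peptidases and others, 0 passed in limma (median 0.02). Ctsa lay at 10.82 ± 0.20 and 11.17 ± 0.21 and Pepd at 9.20 ± 0.12 and 9.36 ± 0.11 (SD, n = 2 each). The dipeptidase genes Dpep1 and Dpep3 were below the filter. Among the relatives of Ace, 1 of 3 genes, Cltrn, had a probe set, and it was below the filter. Of 3 tested metallocarboxypeptidases 1 rose (median -0.05): Aebp1, a secreted carboxypeptidase-like protein that binds collagen, 3.09-fold from 8.96 ± 0.14 to 10.59 ± 0.26 (SD, n = 2 each; limma adjusted p = 0.0010). Of 13 intracellular oligopeptidases and other peptidases 1 rose and 2 fell (median -0.01): Pitrm1 upwards and Lap3 and Metap1 downwards. The other tested Metap1 probe sets differed by -0.39 and -0.44. The other Pitrm1 probe set differed by 0.18 and did not pass (limma adjusted p = 0.27). On their brightest probe sets these 3 genes changed by less than 0.31 each. All 3 lost their calls without NSCL61 array 1 or 2, and Pitrm1 was at -0.05 with poly-A scaling.

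Of 13 tested genes for precursors of peptides that these enzymes cleave, 4 changed, 2 upwards and 2 downwards (median -0.11), beside 19.2% of all genes. Cxcl12, a chemokine that Dpp4 truncates, lay at 9.14 ± 0.02 in NSCL61 and rose 9.11-fold, to 12.33 ± 0.15 (SD, n = 2 each, limma adjusted p = 7.1e-05). Its other tested probe sets rose by 3.56 and 0.74 on the log2 scale. App, the precursor of the neprilysin substrate amyloid beta, rose 7.04-fold from 7.66 ± 0.03 to 10.47 ± 0.22 (SD, n = 2 each; limma adjusted p = 0.00010), and its second tested probe set rose by 2.47. Adm, which encodes the vasodilator peptide adrenomedullin, fell by 0.98 on the log2 scale from 6.53 ± 0.01 (limma adjusted p = 0.0018). Nppb, the precursor of brain natriuretic peptide, fell by 0.53 from 8.08 ± 0.06 (limma adjusted p = 0.016) and lost its call without NSCL61 array 1 or 2. The endothelin precursor Edn1, a substrate of Ece1, lay at 6.46 ± 0.05 and 6.45 ± 0.15 (SD, n = 2 each) and did not pass. Of the other endothelin precursors, Edn3 differed by 0.20 and did not pass. Edn2, below the filter, lay at 4.52 and 4.46 in NSCL61 and at 5.71 and 5.24 in NSCL61-sox11, without overlap. Agt, the angiotensin precursor, lay at 6.48 ± 0.05 and 6.37 ± 0.18 (SD, n = 2 each) and did not pass. The enkephalin precursor Penk was below the filter.

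Of 19 receptor genes tested 3 rose and none fell (median -0.02), beside 10.0% and 9.19% of all genes. The natriuretic peptide receptor genes Npr2 and Npr3 rose 3.76-fold and 2.78-fold (limma adjusted p = 0.0010 and 0.0065). For Npr3 the NSCL61 level was 5.02 ± 0.44 (SD, n = 2), below 5.15, and its other tested probe sets rose by 3.75 and 1.89. Ackr3, a scavenger receptor for the same chemokine, rose 1.99-fold from 6.98 ± 0.19 to 7.97 ± 0.57 (SD, n = 2 each; limma adjusted p = 0.044), a call lost with poly-A scaling, with quantile normalization and without NSCL61 array 1 or 2. The chemokine's signalling receptor gene Cxcr4 was below the filter, as were Ednrb and Bdkrb2, receptors of endothelin and bradykinin.

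Of 6 tested genes of NAAG synthesis and the glutamate it releases, 1 rose and 1 fell (median 0.08), beside 10.0% and 9.19% of all genes. Nat8l, which makes the N-acetylaspartate part of NAAG, fell 2.20-fold from 7.09 ± 0.12 to 5.95 ± 0.26 (SD, n = 2 each; limma adjusted p = 0.0048), and its other tested probe set fell by 2.02. Slc1a3, a glutamate transporter of glia, rose 2.28-fold from 6.75 ± 0.12 to 7.94 ± 0.22 (SD, n = 2 each; limma adjusted p = 0.0030), and its 3 other tested probe sets rose by 1.79 to 2.69. The NAAG synthase gene Rimklb lay at 7.93 ± 0.11 and 7.92 ± 0.21 (SD, n = 2 each), and the NAAG receptor gene Grm3 was below the filter.

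**Figure D4:**
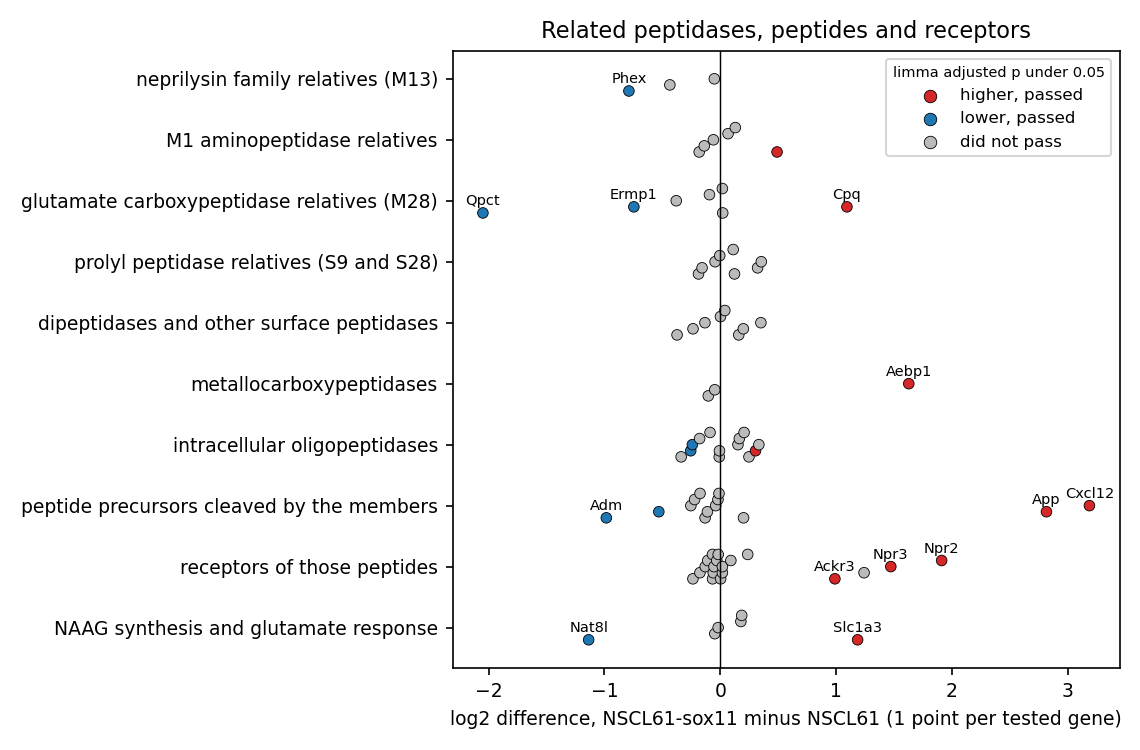
Log2 difference between the lines (NSCL61-sox11 minus NSCL61) of each tested gene of the peptidase, peptide, receptor and NAAG lists, 1 point per gene; red and blue points passed an adjusted p under 0.05 in limma upwards and downwards, and those beyond 0.7 are named. Most points lie near 0, with Cxcl12 and App at the far right (3.19 and 2.82) and Qpct at the far left (-2.05).

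Several of these peptidases also mark pericytes, fibroblasts or leukocytes. Of 8 tested markers of pericytes and mural cells 4 rose (Pdgfrb, Rgs5, Acta2 and Mcam) and none fell, and the mean level of the 11 matched markers was 5.79 to 5.90 on the NSCL61 arrays and 6.46 to 6.60 on the NSCL61-sox11 arrays. The pericyte genes Kcnj8, Vtn and Higd1b lay below the filter. Of 7 tested markers of fibroblasts and meninges 5 rose and none fell, with a mean level of 6.22 to 6.56 and 7.14 to 7.54 over 10 markers, Lum, Islr and Thy1 being below the filter. None of 5 endothelial and 3 blood and microglia markers passed, and Pecam1, Tek, Emcn and Vwf as well as Ptprc, Aif1, Itgam, Cx3cr1 and Tyrobp lay below the filter. Of 4 choroid plexus markers Aqp1 rose and 3 did not pass. Beside these marker counts, 10.0% of all 13084 genes tested rose and 9.19% fell. Mme and Ece1 were higher in the same line as these pericyte and fibroblast markers, and Anpep and Naalad2 were higher in the other line. The part of these cell types in the peptidase differences was not tested.

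Among the tested genes beside Mme and Naalad2 on the chromosome (Dhx36, Gpr149, E130311K13Rik and Chordc1), 1 changed, in the direction opposite to Mme. Over all genes tested, 19.2% passed. In the gene order of GRCm38.p6, among genes with a probe set, Gpr149, an orphan receptor gene, and Dhx36 precede Mme on chromosome 3, and Plch1 and E130311K13Rik follow it. Gpr149 fell 2.69-fold, from 10.81 and 11.09 in NSCL61 to 9.04 and 10.01 in NSCL61-sox11 (limma adjusted p = 0.022, lost without NSCL61 array 1 or 2). Dhx36 and E130311K13Rik differed by -0.08 and -0.35 and did not pass, and Plch1 was below the filter. Around Naalad2 on chromosome 9, Chordc1 differed by -0.22 and did not pass, and Fat3, Ubtfl1 and Mbd3l2 were below the filter.

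The genes whose values over the 4 arrays, after subtraction of each gene's mean, lay closest to Mme were Ptx3, Postn and Col1a1, with root mean square differences of 0.46, 0.48 and 0.51. Ptx3, a secreted pentraxin, lay at 7.89 and 8.54 in NSCL61 and at 10.80 and 11.72 in NSCL61-sox11, so that like Mme it was higher on array 2 in both lines. Closest to Naalad2 were the synaptotagmin gene Syt14, the homeobox gene Hoxd9 and Rhox5, at 0.19, 0.20 and 0.22. Syt14 lay at 8.72 and 8.89 in NSCL61 and at 5.81 and 6.25 in NSCL61-sox11. These genes were picked for their likeness in the same contrast, so their differences are a description.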

How the data were processed

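Biotin-labelled RNA of each sample was hybridised to 1 Affymetrix M430_2 array, per the labels. The authors deposited 1 value per probe set and array on what their range shows to be a log2 scale. The log base, the summarisation and the normalization that made them are not given in the sources used here. Gene symbols came from the platform annotation held by GEO: 34945 have 1 symbol, 932 several and 9160 none, and the last 2 kinds were not named; gene identifiers updated 0 symbols against GRCm38.p6. No detection calls were used.

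The test of NSCL61-sox11 against NSCL61 used limma 3.58.1 under R 4.3.3 (lmFit, eBayes with intensity trend, two-sided, 2 residual and 6.36 moderated degrees of freedom) on the 27022 probe sets with the highest mean, without 64 controls, with Benjamini-Hochberg adjustment. Errors beside levels are SD; errors beside peptidase differences are moderated SE from the fit of all probe sets without controls. A gene was represented by its brightest tested probe set. The members and lists were chosen with earlier results of these data known. Named genes are all members, up to 4 genes per list that passed, by size of change, or the 2 brightest of a list without any, 2 neighbours on each side of Mme and Naalad2, the 3 genes closest to each in pattern, and Sox11. Marker genes, dim genes and other genes that did not pass were named after their values were seen. On simulated data for this comparison with 27022 probe sets, the test called 10.4% of 67 with a 1.5-fold change, 74.6% of 67 with 2-fold and 97.0% of 66 with 4-fold, and made 6 false calls. No other probe sets were changed there, while 17.3% passed in the data. The simulated noise was independent, while the array gaps in the data correlated between the lines with r = 0.41. These rates therefore need not hold for the data. Figures were drawn with matplotlib 3.10.9.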

Additional observations from a re-analysis of the deposited data

How the results depend on the processing

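Under 14 alternatives the Mme difference of 3.73 ran from 3.0 to 4.46, the ends coming from leaving out 1 NSCL61 array. The level filters, the variance trend and the block cannot move a member's difference. The Naalad2 difference of -3.06 was -3.41 with poly-A scaling and -3.27 with hybridisation control scaling; the brightest 40% of probe sets, and the set without _x_at and _s_at names, gave no value for it. Ece1 ran from 1.06 to 1.499, Anpep from -0.95 to -0.45 and Folh1 from -0.52 to -0.12. Small differences also changed sign when 1 array was left out: Ace to 0.032 (NSCL61-sox11 array 1), Enpep to -0.049 (NSCL61 array 2) and Dpp4 to -0.0036 (NSCL61-sox11 array 2). The 4678 probe sets passing between the lines became 1635 to 4796 when 1 array was left out, and the related peptidase genes passing became 3 to 9. With the brightest 40% of probe sets, 1 receptor gene and 1 NAAG gene passed, as fewer genes were tested. Pitrm1 changed sign with poly-A scaling, to -0.051. The titles number the arrays 1 and 2 in both lines, but nothing states that a number pairs them. Across the 27022 tested probe sets, which are not independent, the gap between arrays correlated between the lines with r = 0.41. With the array number as a block 9227 probe sets and 20 related peptidase genes (11 up, 9 down) passed; the block left 1 residual degree of freedom. Values under alternatives were also taken for Gpr149 and for the genes that passed in the peptidase, peptide, receptor and NAAG lists. Genes close to Mme or Naalad2 in pattern were included too, among them Vgll3, Maf, Npl and Ppp1r9a, which are not named above. Of these 398 values 355 kept direction and call, 42 lost the call and 1 changed sign. The number of arrays limits the precision, and levels near 5.15 limit the size of the Mme and Naalad2 differences.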
